A study of Pan troglodytes with 6 samples.

Results

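The genes described here are those of 13 families of solute carriers (SLC), the membrane proteins that move small molecules and ions across cell membranes. The families are SLC1A, SLC4A, SLC6A, SLC8A, SLC9A, SLC12A, SLC17A, SLC18A, SLC24A, SLC26A, SLC30A, SLC32A and SLC39A, which hold the transporters of neurotransmitters, of bicarbonate, sodium, calcium, protons and chloride, and of zinc. A gene was taken where the platform annotation of an array feature gave exactly 1 symbol and that symbol was a family prefix followed by a number. This gave 84 genes, out of 12584 genes with such a feature and 15143 features in all, and no 2 of the 84 shared a symbol. A further 14 features named a gene of these families beside another symbol and were not used. For 11 family genes these were the only features, so those genes were not analysed here. By family there were 7 SLC1A, 8 SLC4A, 16 SLC6A, 2 SLC8A, 4 SLC9A, 6 SLC12A, 9 SLC17A, 1 SLC18A, 4 SLC24A, 6 SLC26A, 10 SLC30A, 1 SLC32A and 10 SLC39A genes.

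Total RNA of cerebellum and of liver from chimpanzees (Pan troglodytes) was measured on 3 arrays per tissue, each a biological replicate. In both tissues replicate 1 was a female aged 27 years, replicate 2 a male aged 37 years and replicate 3 a male aged 30 years. The labels do not say whether a number stands for the same animal in both tissues, and no treatment is given. The arrays were Affymetrix Human Exon 1.0 arrays, whose probes follow the human genome, so a difference in sequence between the species can lower the level of a gene on all 6 arrays. Levels are therefore compared between tissues for a gene and never between genes.

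Solute carriers of the SLC1 and SLC6 families clear glutamate, GABA, glycine and monoamines from the space around synapses, using the sodium gradient. SLC17, SLC18 and SLC32 carriers load transmitters into synaptic vesicles, using the proton gradient that the vacuolar H+-ATPase builds. SLC12 cotransporters set the chloride concentration of neurons, which decides how a GABA-A receptor current acts, and SLC4, SLC8, SLC9 and SLC24 exchangers hold the acid-base and calcium balance of the cell. SLC30 proteins (ZnT) move zinc out of the cytosol and SLC39 proteins (ZIP) move it in, and the liver is a main organ of zinc and manganese handling.

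The tissue labels were checked on marker genes, given as the intensity summed over the list for replicates 1, 2 and 3. The 4 neuronal markers summed to 9988, 9490.3 and 9540.2 in cerebellum and 103, 116 and 62.9 in liver, and the 4 measured hepatocyte markers to 87.3, 87.5 and 42.1 in cerebellum and 17561, 15862 and 15158 in liver. All 4 of each list passed the test in the direction of the label. Oligodendrocyte markers varied among the cerebellum arrays and were highest in replicate 1 for 4 of 4 genes, with sums of 5579, 1666 and 2252 in cerebellum and 253, 254 and 311 in liver. Cerebellum replicate 2 was highest for 4 of 4 Purkinje cell markers, with sums of 3470.4, 5456 and 3557 in cerebellum and 140.4, 263 and 344 in liver. It was also highest for 3 of 3 markers of astrocytes and Bergmann glia, which summed to 2186, 4743 and 2012 in cerebellum and 79.3, 112 and 93.9 in liver. Liver replicate 3 was the highest liver array for 6 of 6 macrophage markers, 4 of 4 fibroblast markers and 5 of 5 bile duct markers. The macrophage markers summed to 166, 217 and 165 in cerebellum and 2515, 2370.1 and 4683 in liver. The fibroblast markers summed to 159, 517 and 227 in cerebellum and 1152, 1131 and 3518 in liver, and the bile duct markers to 1782, 434 and 399.6 in cerebellum and 281, 306 and 756 in liver. Most of the bile duct sum in cerebellum was SPP1, at 1699, 338 and 307, which was higher in cerebellum. Only EPCAM of that list was higher in liver, and KRT7, KRT19 and CFTR passed in neither direction. Of all these markers only the bile duct gene KRT7 had values at or below 0, at -7.75, -2.04 and 127 in liver. In such pieces of whole tissue, fewer cells of a type and less RNA per cell cannot be told apart.

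Levels are intensities on a linear scale, as the authors deposited them, with the same distribution on every array. The median intensity of all features was 96.3, and 38.3 was the 25th percentile. Values of the 3 arrays of a tissue are given in the order of replicates 1, 2 and 3. Differences are cerebellum minus liver on the scale of log2(intensity + 16.8), with the standard error after the ± sign. They were tested with limma, and a gene is said to be higher in a tissue where its p, adjusted by Benjamini-Hochberg over all 15143 features, was under 0.05. The added 16.8 makes the difference of a dim gene smaller than its ratio of intensities.

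Of the 84 transporter genes, 25 were higher in cerebellum (29.8%), 22 were higher in liver (26.2%) and 37 passed in neither direction. Over all features 50.6% passed, 26.7% higher in cerebellum and 23.9% in liver, so the shares of the transporters lie near those of the array as a whole. Their median difference was 0.15 and their median absolute difference 0.74, against 0.04 and 0.62 over all features. The 3 cerebellum values lay entirely above the 3 liver values for 29 genes, and the 3 liver values above the 3 cerebellum values for 25, where 59.4% of all features were separated, 31% and 28.5% in these directions. Differences ran from -3.99 for the zinc and manganese importer SLC39A14 to 5.55 for the glial glutamate transporter SLC1A3. For 13 of the 84 genes all 6 values were under 38.3, and no member had a value below 0.

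**Figure D1:**
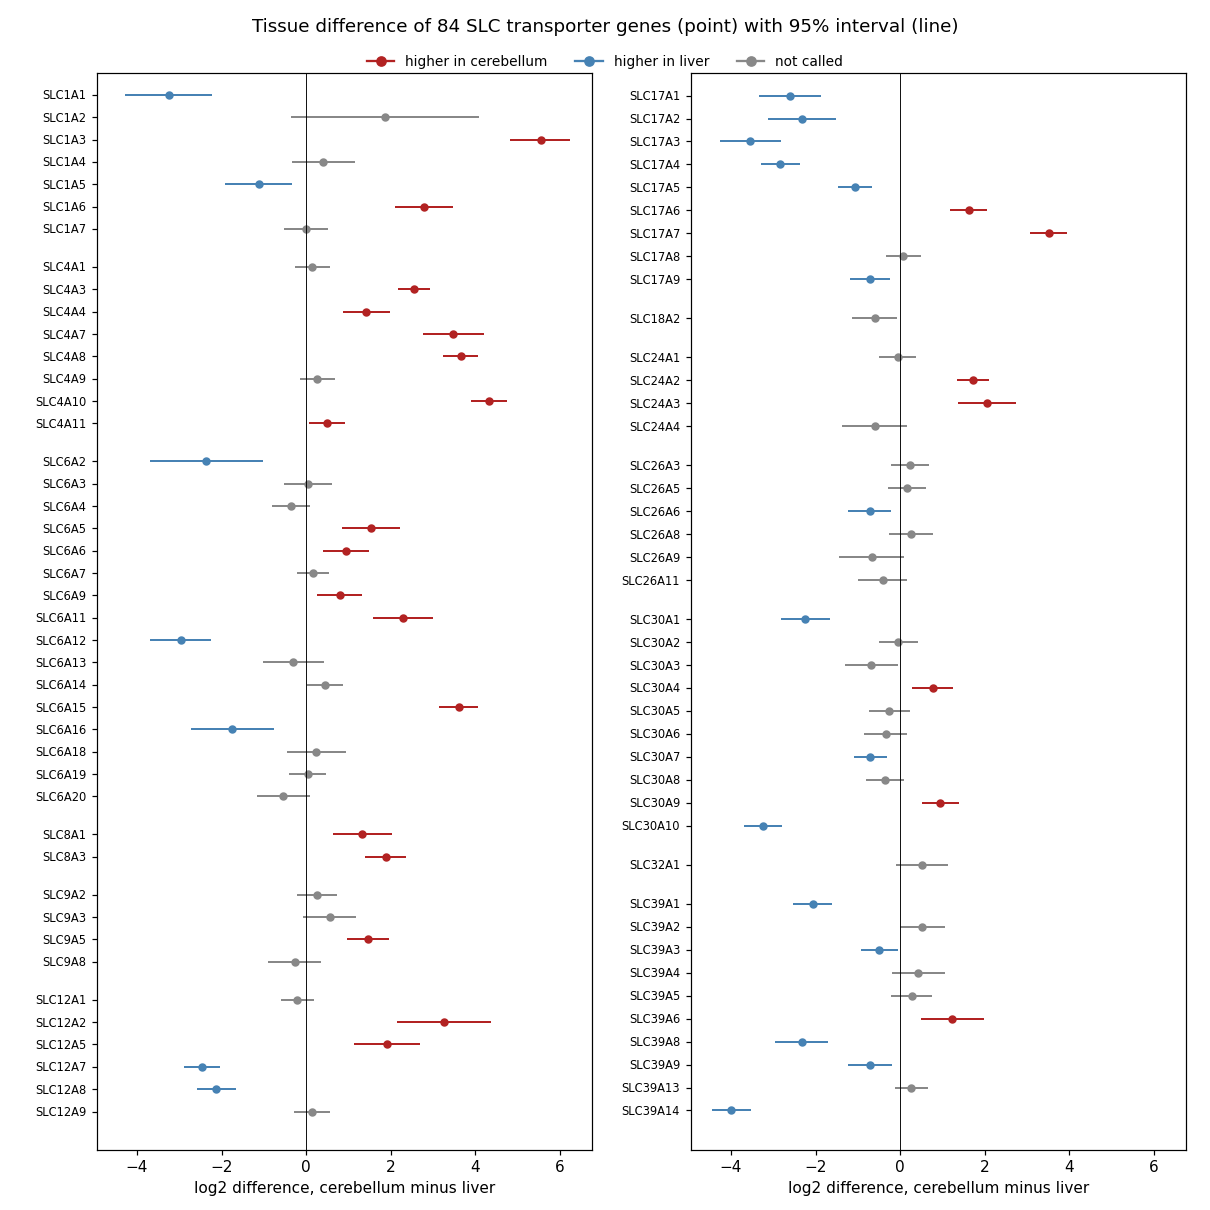
Log2 difference (cerebellum minus liver, point) with its 95% interval (line) for each of the 84 transporter genes, grouped by family, with colour showing the call. SLC4A, SLC8A, SLC9A and SLC24A hold calls toward cerebellum and none toward liver, while SLC1A, SLC6A, SLC12A, SLC17A, SLC30A and SLC39A are split, and the widest interval is that of SLC1A2.

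Of these 47 calls, 37 were kept in each of 15 alternatives of processing or of left-out arrays that tested the gene, leaving aside a treat test against a 1.5-fold difference, the remaining one of 16. The other 10 were SLC4A11, SLC6A9 and SLC30A4 toward cerebellum and SLC1A5, SLC17A5, SLC17A9, SLC26A6, SLC30A7, SLC39A3 and SLC39A9 toward liver. The treat test took away the calls of 9 of these 10, all but SLC17A5, and those of SLC6A6, SLC8A1, SLC30A9 and SLC39A6, so that 33 calls were kept in all 16. Among the alternatives, repeating the quantile normalization and taking the dimmer feature of a shared symbol could not change any of these genes. The arrays already had the same distribution, and no member shared its symbol with another feature. The scale between tissues moved the count toward cerebellum most. When the arrays were aligned on 101 genes of ribosomal proteins, proteasome and respiratory chain, the median difference of all features moved to 0.50 from 0.04. Then 40 transporters were higher in cerebellum and 15 in liver, so that 72.7% of the calls went toward cerebellum, against 53.2% on the deposited scale. For all features these shares were 74.3% and 52.8%. No call changed its direction in this alignment, but 7 of the calls toward liver were lost, those of the 7 liver genes named above. The 15 gained, all toward cerebellum, were SLC1A2, SLC1A4, SLC4A9, SLC6A7, SLC6A14, SLC9A2, SLC9A3, SLC26A3, SLC26A5, SLC26A8, SLC32A1, SLC39A2, SLC39A4, SLC39A5 and SLC39A13. A range of adjusted p over alternatives, where one is given below, is over the 15 without the treat test.

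The 5 carriers of excitatory amino acids differed widely from each other. SLC1A3 (EAAT1), the glutamate transporter of Bergmann glia and other astrocytes, was at 1594, 2595 and 2738 in cerebellum and 28.5, 19.1 and 52.9 in liver. The tissues were far apart, with a difference of 5.55 ± 0.30 (adjusted p = 1.83e-06). SLC1A6 (EAAT4), known from Purkinje cells, was at 135, 286 and 223 in cerebellum and 12.8, 25.8 and 9.91 in liver. Each cerebellum value lay above each liver value, and the difference was 2.79 ± 0.29 (adjusted p = 7.44e-05). Its highest value was on cerebellum replicate 2, as for SLC6A11 and GAD1 below, whereas SLC1A3 was highest on replicate 3. Replicate 2 was the array with the highest Purkinje cell and astrocyte markers, whose part in these values was not tested. That array was the highest cerebellum for 46.4% of the transporters and for 39.1% of all features. SLC1A1 (EAAT3), which carries glutamate and cysteine into neurons and epithelial cells, went the other way. Its values were 63.0, 93.5 and 79.3 in cerebellum and 1177, 1474 and 392 in liver. The tissues did not overlap, liver replicate 3 was the lowest liver array, and the difference was -3.25 ± 0.44 (adjusted p = 3.45e-04).

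SLC1A2 (EAAT2), the main glutamate transporter of forebrain astrocytes, was at 905, 1296 and 865 in cerebellum and 541, 881 and 26.6 in liver. Liver replicate 2 lay within the range of cerebellum and liver replicate 1 below it, whereas liver replicate 3 was far below all other arrays. The difference of 1.87 ± 0.96 (adjusted p = 0.138) did not pass, with a 95% interval of -0.33 to 4.07. Without liver replicate 3 it was 0.53 ± 0.27 (adjusted p = 0.147), so that this 1 array set most of its size. Over the alternatives the adjusted p of SLC1A2 ran from 0.0374 to 0.274, the lowest being that of the alignment on general genes. SLC1A7 (EAAT5), known from the retina, was at 54.2, 53.5 and 79.2 in cerebellum and 72.2, 69.5 and 45.9 in liver. Its tissues overlapped and its interval of -0.49 to 0.49 was centred on 0.

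Of the neutral amino acid exchangers, SLC1A4 (ASCT1) was at 142, 315 and 182 in cerebellum and 116, 216 and 128 in liver. The values overlapped and the difference of 0.41 ± 0.32 (adjusted p = 0.313) did not pass. SLC1A5 (ASCT2), an exchanger of glutamine, was dim, at 9.60, 11.8 and 10.9 in cerebellum and 22.3, 35.4 and 89.1 in liver. All liver values were above those of cerebellum, with the highest in liver replicate 3, and the difference was -1.12 ± 0.33 (adjusted p = 0.0214). That call was lost without cerebellum replicate 1, 2 or 3 (adjusted p = 0.0634, 0.0517 and 0.0599) and in the alignment on general genes, and the range over alternatives was 0.00641 to 0.113. Without liver replicate 3 the difference of SLC1A5 was -0.71 ± 0.19 (adjusted p = 0.0165).

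In the SLC6A family, 5 of 16 genes were higher in cerebellum and 3 in liver. SLC6A11 (GAT3), a GABA transporter of astrocytes, was at 70.7, 144 and 95.9 in cerebellum and 18.0, 1.47 and 4.59 in liver. The tissues did not overlap, and the difference was 2.29 ± 0.30 (adjusted p = 3.13e-04). SLC6A12 (BGT1), which carries betaine and GABA, was at 41.5, 85.0 and 37.4 in cerebellum and 666, 574 and 363 in liver. Here the liver values were all above the cerebellum values, with a difference of -2.97 ± 0.31 (adjusted p = 7.20e-05). SLC6A13 (GAT2), another GABA carrier, was at 14.7, 22.1 and 15.0 in cerebellum and 41.2, 33.0 and 8.47 in liver. Liver replicate 3 lay below all cerebellum values while the other livers lay above them, and the difference of -0.30 ± 0.30 (adjusted p = 0.441) did not pass. Without that array it was -0.66 ± 0.19 (adjusted p = 0.0206), and over the alternatives the adjusted p ran from 0.0206 to 0.876. SLC6A12 and SLC6A13 are next to each other in the gene order of the RefSeq annotation of the chimpanzee assembly NHGRI_mPanTro3-v2.0_pri. SLC6A6, the taurine transporter, was higher in cerebellum by 0.95 ± 0.23 (adjusted p = 0.00806).

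Both carriers of glycine were higher in cerebellum. SLC6A5 (GlyT2), the transporter of glycinergic nerve endings, was at 36.0, 97.2 and 61.1 in cerebellum and 15.3, 10.2 and 5.83 in liver. The cerebellum values spanned more than 1 on the log2 scale and still lay above all liver values, with a difference of 1.53 ± 0.29 (adjusted p = 0.00228). SLC6A9 (GlyT1), the glial glycine transporter, was at 104, 124 and 80.2 in cerebellum and 70.0, 44.7 and 42.2 in liver. It was separated by tissue, with a difference of 0.80 ± 0.22 (adjusted p = 0.0165), and this call was lost without cerebellum replicate 1 or 2 (adjusted p = 0.0530 and 0.0544) and without liver replicate 2 (adjusted p = 0.0594). Its adjusted p over the alternatives ran from 0.00331 to 0.0594. The proline transporter SLC6A7 was at 25.3, 24.8 and 28.7 in cerebellum and 22.5, 23.0 and 19.3 in liver. These values did not overlap but were close, and the difference of 0.17 ± 0.16 (adjusted p = 0.408) did not pass.

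Among the monoamine carriers, SLC6A2, the norepinephrine transporter, was higher in liver. Its values were 13.7, 8.53 and 10.6 in cerebellum and 219, 240.0 and 30.0 in liver. All liver values lay above those of cerebellum, although liver replicate 3 was far below the other livers, and the difference was -2.36 ± 0.58 (adjusted p = 0.00887). Without that array it was -3.16 ± 0.18 (adjusted p = 7.24e-06), and over the alternatives its adjusted p ran from 7.24e-06 to 0.0380. The dopamine transporter SLC6A3 was at 53.1, 63.7 and 75.3 in cerebellum and 88.2, 57.6 and 43.1 in liver, and its tissues overlapped with a 95% interval of -0.49 to 0.59. The serotonin transporter SLC6A4 was at 32.3, 34.3 and 28.6 in cerebellum and 43.0, 58.5 and 35.4 in liver. The livers were above the cerebella, but the difference of -0.35 ± 0.19 (adjusted p = 0.158) did not pass. SLC18A2 (VMAT2), which fills vesicles with monoamines, was at 82.2, 73.2 and 80.1 in cerebellum and 98.5, 180.1 and 116 in liver. It too was separated toward liver without passing, with a difference of -0.60 ± 0.22 (adjusted p = 0.0506), and passed without liver replicate 1 (adjusted p = 0.0236) or without dim features (adjusted p = 0.0447). The range of SLC18A2 over the alternatives was 0.0236 to 0.644.

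Of the SLC6A carriers of other amino acids, SLC6A15 (B0AT2), a neutral amino acid transporter of neurons, was at 367, 505 and 382 in cerebellum and 17.1, 22.6 and 15.5 in liver. The tissues were far apart, with a difference of 3.62 ± 0.19 (adjusted p = 1.50e-06). SLC6A16, an orphan of the family, was at 17.7, 24.7 and 21.0 in cerebellum and 179.6, 162 and 42.0 in liver. It was higher in liver, with a difference of -1.75 ± 0.42 (adjusted p = 0.00791), and liver replicate 3 was again the lowest of the livers. SLC6A14, a carrier of neutral and basic amino acids, was at 18.8, 16.5 and 22.0 in cerebellum and 6.62, 13.7 and 8.20 in liver, separated toward cerebellum but short of the threshold at 0.45 ± 0.18 (adjusted p = 0.0606). It passed without liver replicate 2 (adjusted p = 0.0442) and also with the pseudocount at the 5th percentile, the generalised log, the variance trend and the alignment on general genes, with a range over the alternatives of 0.00585 to 0.195. SLC6A20, which carries proline, was at 140.4, 196 and 126 in cerebellum and 157, 281 and 266 in liver. Its tissues overlapped, the difference was -0.54 ± 0.26 (adjusted p = 0.117), and it passed without liver replicate 1 (adjusted p = 0.0226), with a range of 0.0226 to 0.814. The kidney and gut carriers SLC6A18 and SLC6A19 had differences of 0.24 and 0.04 and passed in neither direction.

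**Figure D2:**
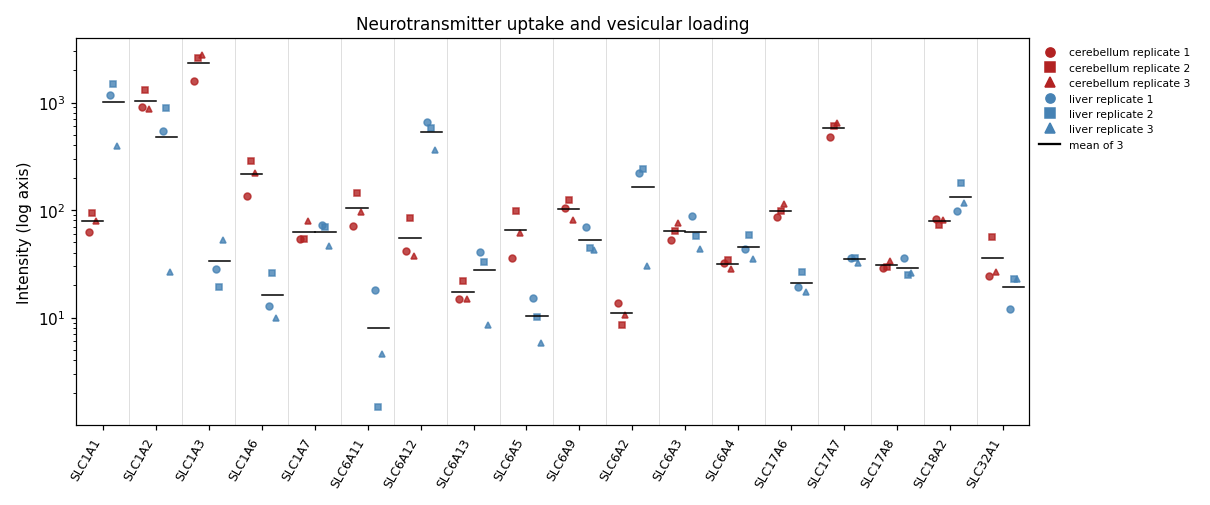
Intensity (log axis) of 18 genes of neurotransmitter uptake and vesicular loading on each array, cerebellum in red and liver in blue, with the marker shape giving the replicate and the bar the mean of 3. SLC1A3, SLC1A6 and SLC17A7 are separated toward cerebellum and SLC1A1, SLC6A12 and SLC6A2 toward liver, and liver replicate 3 (blue triangle) lies far below the other livers in SLC1A2 and SLC6A2.

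Of the 4 carriers that load glutamate or GABA into vesicles, 2 were higher in cerebellum and 0 in liver. SLC17A7 (VGLUT1), the vesicular glutamate transporter of granule cells, was at 477, 607 and 652 in cerebellum and 35.9, 36.2 and 32.1 in liver. The tissues were far apart, with a difference of 3.52 ± 0.18 (adjusted p = 1.26e-06). SLC17A6 (VGLUT2), which climbing fibre endings use, was at 85.4, 97.1 and 115 in cerebellum and 19.2, 26.4 and 17.2 in liver. It was separated in the same direction, by 1.62 ± 0.18 (adjusted p = 1.23e-04). SLC17A8 (VGLUT3) was at 29.0, 29.8 and 33.8 in cerebellum and 35.6, 24.7 and 25.9 in liver, with overlapping tissues and an interval of -0.32 to 0.47. SLC32A1, which fills vesicles with GABA and glycine, was dim at 24.4, 55.7 and 26.5 in cerebellum and 12.0, 22.7 and 22.6 in liver. The cerebellum values were all above the liver values, but the lowest and the highest of the 2 tissues were close, and the interval of -0.08 to 1.10 included 0. The alignment on general genes put it past the threshold, and its range over the alternatives was 0.00561 to 0.370.

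Genes around these carriers were taken from lists of partners. The counts of these lists, here and below, stand beside 26.7% of all features higher in cerebellum and 23.9% higher in liver. Of 8 measured genes of glutamate, glutamine and GABA metabolism, 4 were higher in cerebellum and 2 in liver, with a median difference of 1.07, against 6 and 1 in the alignment on general genes. The glutamine carrier SLC38A1, of the list but of another family, was at 1732, 2215 and 2019.6 in cerebellum and 48.2, 51.9 and 330.4 in liver, with liver replicate 3 above the other livers and a difference of 4.11 ± 0.57 (adjusted p = 4.31e-04). GAD1, which makes GABA from glutamate, was at 202, 582 and 342 in cerebellum and 12.2, 7.20 and 9.48 in liver, a difference of 3.78 ± 0.33 (adjusted p = 2.81e-05). SLC38A3, a glutamine carrier of hepatocytes and astrocytes, was at 40.7, 75.8 and 49.4 in cerebellum and 1250.0, 1168 and 1144 in liver, a difference of -4.09 ± 0.21 (adjusted p = 1.29e-06). Both of the first pair were higher in cerebellum and SLC38A3 was higher in liver. ALDH5A1, which breaks GABA down further, was also higher in liver, with a difference of -0.59 ± 0.19 (adjusted p = 0.0303). That call was lost with the replicate block (adjusted p = 0.0524) and in the alignment on general genes (adjusted p = 0.702). It was also lost without any 1 of the arrays except liver replicate 3 (adjusted p = 0.0521 to 0.101), with a range over the alternatives of 0.00957 to 0.702. Of 12 measured subunits and accessory proteins of the vacuolar H+-ATPase, 7 were higher in cerebellum and 0 in liver, with a median of 0.74. The call of ATP6V1D was lost with any 1 of 4 arrays left out (adjusted p = 0.0663 to 0.0824), and that of ATP6V0E2 without cerebellum replicate 2 (adjusted p = 0.0517). Without that array ATP6V0D1 passed toward liver, with a difference of -0.77 (adjusted p = 0.0219), against -0.44 ± 0.30 (adjusted p = 0.256) with it. ATP6V1B2 was at 1052, 1507 and 1446 in cerebellum and 444, 297 and 394 in liver, with a difference of 1.77 ± 0.22 (adjusted p = 2.14e-04), and ATP6V1H followed with 1.45 ± 0.19 (adjusted p = 2.75e-04).

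Of 13 measured genes of monoamine, glycine, taurine and creatine metabolism, 9 were higher in liver and 1 in cerebellum, with a median of -2.80. The betaine gene of the list was not measured. TH, TPH1 and TPH2, of monoamine synthesis, passed in neither direction (adjusted p = 0.115, 0.537 and 0.153). TH passed toward cerebellum in the alignment on general genes (adjusted p = 0.0257) and without liver replicate 1 (adjusted p = 0.0408). SHMT1, which converts serine and glycine, was at 78.8, 49.8 and 55.4 in cerebellum and 1539, 1544 and 1221 in liver, with a difference of -4.23 ± 0.20 (adjusted p = 9.29e-07). DDC, which makes dopamine and serotonin from their precursors, was at 26.2, 21.9 and 32.5 in cerebellum and 465, 359 and 303 in liver, with a difference of -3.15 ± 0.21 (adjusted p = 4.99e-06). The gene higher in cerebellum was CKB, the brain creatine kinase, by 4.53 ± 0.31 (adjusted p = 6.58e-06).

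The other SLC17A genes went toward liver. SLC17A1, SLC17A2, SLC17A3 and SLC17A4, carriers of phosphate, urate and organic anions, were all higher in liver, with differences from -3.54 to -2.32. SLC17A3 was at 15.2, 1.5 and 4.57 in cerebellum and 387, 189.6 and 219 in liver, a difference of -3.54 ± 0.30 (adjusted p = 2.44e-05). SLC17A4 was at 15.3, 17.3 and 18.8 in cerebellum and 284, 211 and 188 in liver, a difference of -2.83 ± 0.19 (adjusted p = 6.20e-06). SLC17A1 was at 5.88, 3.86 and 6.60 in cerebellum and 179, 139 and 63.3 in liver, a difference of -2.60 ± 0.31 (adjusted p = 1.69e-04). The 3 liver values of each gene lay above its cerebellum values, and replicate 1 was the highest liver array for all of them. SLC17A4, SLC17A3 and SLC17A2 follow each other in the gene order of the same RefSeq annotation. SLC17A5 (sialin), which exports sialic acid from lysosomes, was higher in liver. Its difference was -1.06 ± 0.16 (adjusted p = 8.00e-04), and the call was lost in the alignment on general genes (range 5.45e-04 to 0.0603). SLC17A9, a vesicular carrier of nucleotides, was at 143, 146 and 149 in cerebellum and 275, 289 and 189.9 in liver. The livers lay above the cerebella, and the difference of -0.70 ± 0.20 (adjusted p = 0.0164) was lost without cerebellum replicate 1 or 3 (adjusted p = 0.0541 and 0.0527) and without liver replicate 2 (adjusted p = 0.0608) and in that alignment, with a range of 0.00304 to 0.444.

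The SLC12A family, which holds the cation-chloride cotransporters, split into 2 genes higher in cerebellum and 2 higher in liver, of 6. SLC12A2 (NKCC1), which brings chloride into the cell, was at 1345, 759 and 942 in cerebellum and 44.9, 59.8 and 222 in liver. The tissues did not overlap and liver replicate 3 was well above the other livers, with a difference of 3.27 ± 0.48 (adjusted p = 5.46e-04). Without that array it was 3.87 ± 0.26 (adjusted p = 1.93e-05), with a range over the alternatives of 1.93e-05 to 0.00396. The highest cerebellum value of SLC12A2 was in replicate 1, the array with the highest oligodendrocyte markers, whose part in this value was not tested. SLC12A5 (KCC2), the neuronal cotransporter that takes chloride out, was at 166, 233 and 205 in cerebellum and 81.4, 32.3 and 21.6 in liver. Cerebellum was above liver on every array, liver replicate 1 was the highest liver, and the difference was 1.92 ± 0.33 (adjusted p = 0.00142).

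SLC12A7 (KCC4), a potassium-chloride cotransporter of epithelia, was at 22.4, 28.2 and 22.7 in cerebellum and 228, 179.9 and 225 in liver. SLC12A8 was at 14.5, 21.6 and 22.3 in cerebellum and 164, 141 and 118 in liver. Both were higher in liver with no overlap, with differences of -2.46 ± 0.17 (adjusted p = 7.44e-06) and -2.12 ± 0.19 (adjusted p = 2.85e-05). The kidney cotransporter SLC12A1 (NKCC2), dim on all arrays, had an interval of -0.58 to 0.16, and that of SLC12A9 was -0.25 to 0.54. WNK kinases and their effectors phosphorylate cation-chloride cotransporters such as SLC12A2 and SLC12A5. Of 9 measured genes of that pathway, 7 were higher in cerebellum and 0 in liver, with a median of 1.27. The call of CAB39 was lost with the replicate block (adjusted p = 0.0518) and with any 1 of 4 arrays left out (adjusted p = 0.0547 to 0.122). KLHL3, which marks WNK kinases for degradation, was at 701, 439.6 and 639 in cerebellum and 24.9, 38.3 and 41.0 in liver, a difference of 3.55 ± 0.23 (adjusted p = 4.75e-06). STK39 (SPAK), the kinase that acts on the cotransporters, was at 883, 634 and 621 in cerebellum and 20.4, 23.0 and 159 in liver, a difference of 3.49 ± 0.54 (adjusted p = 7.75e-04). In liver STK39, like SLC12A2, had its highest value in replicate 3.

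The SLC4A family of bicarbonate carriers had 6 of 8 genes higher in cerebellum and 0 higher in liver, with a median difference of 1.99. SLC4A10, a sodium-dependent bicarbonate carrier of neurons and choroid plexus, was at 614, 810.0 and 644 in cerebellum and 16.7, 21.2 and 17.1 in liver, a difference of 4.32 ± 0.18 (adjusted p = 4.43e-07). SLC4A8 (NDCBE), a sodium-driven chloride-bicarbonate exchanger, was at 291, 382 and 329.7 in cerebellum and 12.4, 9.72 and 10.7 in liver, a difference of 3.66 ± 0.17 (adjusted p = 8.64e-07). SLC4A7 (NBCn1) was at 638, 543 and 671 in cerebellum and 25.3, 28.2 and 78.5 in liver, a difference of 3.48 ± 0.31 (adjusted p = 2.92e-05). Of the 4 measured choroid plexus markers, OTX2 was higher in cerebellum, KL and TTR were higher in liver and FOLR1 passed in neither direction. OTX2 was at 131, 27.3 and 97.8 in cerebellum and 15.8, 18.1 and 6.27 in liver. In cerebellum TTR was at 23.0, 43.2 and 10.2, KL at 10.2, 13.2 and 12.9, and FOLR1 at 30.2, 33.0 and 33.5. The part of choroid plexus in the level of SLC4A10 was not tested. For SLC4A10, SLC4A8 and SLC4A7 each cerebellum value was far above each liver value, and in SLC4A7 liver replicate 3 was the highest liver. The anion exchanger SLC4A3 (AE3) and the sodium-bicarbonate cotransporter SLC4A4 (NBCe1) were higher by 2.56 ± 0.16 (adjusted p = 3.55e-06) and 1.43 ± 0.23 (adjusted p = 0.00106).

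SLC4A11, known from the cornea, was at 76.5, 79.6 and 81.9 in cerebellum and 64.5, 44.7 and 46.2 in liver. It was separated by tissue by a small step, and the difference of 0.50 ± 0.18 (adjusted p = 0.0434) was lost without cerebellum replicate 1, 2 or 3 (adjusted p = 0.0953, 0.0813 and 0.132) and without liver replicate 2 or 3 (adjusted p = 0.128 and 0.0865), with a range over the alternatives of 0.0101 to 0.132. SLC4A1, the anion exchanger of red cells, was under 10 on every array, with values of 8.45, 6.72 and 8.59 in cerebellum and 7.18, 2.61 and 6.80 in liver. The other red cell markers gave 1 call of 3, that of HBB toward liver, and summed to 62.6, 77.8 and 72.6 in cerebellum and 181, 274 and 462 in liver. SLC4A9 overlapped between tissues with an interval of -0.12 to 0.67.

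Active carbonic anhydrases supply the bicarbonate these carriers move. Of 12 measured genes of the family, 4 were higher in cerebellum (CA4, CA8, CA10 and CA11) and 1 in liver, with a median of 0.27. CA1 passed toward liver without liver replicate 3 (adjusted p = 0.0239), and CA7 and CA14 toward cerebellum in the alignment on general genes. CA8, CA10 and CA11 are members of the family without enzyme activity, so the calls do not count active enzymes alone. The largest differences toward cerebellum were those of CA10 and CA11. CA8 differed by 3.28 ± 0.52 (adjusted p = 8.85e-04) and CA4 by 1.54 ± 0.23 (adjusted p = 6.70e-04). CA10 was at 1022, 926 and 1067 in cerebellum and 8.33, 16.5 and 11.5 in liver, a difference of 5.15 ± 0.18 (adjusted p = 2.25e-07), and CA11 differed by 4.23 ± 0.18 (adjusted p = 5.29e-07). CA2, the abundant cytosolic enzyme, was at 30.0, 57.0 and 30.0 in cerebellum and 728, 589 and 433 in liver, a difference of -3.43 ± 0.26 (adjusted p = 1.13e-05), and was higher in liver. In the SLC26A family of anion exchangers 0 of 6 genes were higher in cerebellum and 1 in liver, against 3 and 0 in the alignment on general genes. SLC26A6 was at 59.7, 38.7 and 57.6 in cerebellum and 118, 93.6 and 77.2 in liver. The livers lay above the cerebella, but the difference of -0.72 ± 0.21 (adjusted p = 0.0207) was lost without cerebellum replicate 2 (adjusted p = 0.0629) and without liver replicate 1 or 2 (adjusted p = 0.0593 and 0.0536) and in the alignment on general genes, with a range of 0.0133 to 0.492. SLC26A9 was at 92.7, 69.6 and 61.6 in cerebellum and 175, 166 and 68.0 in liver, where liver replicate 3 fell among the cerebellum values. Its difference of -0.67 ± 0.32 (adjusted p = 0.115) did not pass, and without that array it was -1.05 ± 0.20 (adjusted p = 0.00354), with a range over alternatives of 0.00354 to 0.637. SLC26A11 overlapped between tissues, with an interval of -0.96 to 0.14. SLC26A3, SLC26A5 and SLC26A8, known from gut, inner ear and testis, were under 38.3 on all arrays and passed toward cerebellum in that alignment (adjusted p = 0.0453, 0.0419 and 0.0409) and in no other alternative.

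The sodium-calcium exchangers were higher in cerebellum in both measured SLC8A genes. SLC8A1 (NCX1) was at 230.4, 453 and 275 in cerebellum and 123, 78.0 and 143 in liver. Cerebellum replicate 2 was the highest and all cerebella were above all livers, with a difference of 1.33 ± 0.29 (adjusted p = 0.00491). SLC8A3 (NCX3) was at 65.5, 63.6 and 96.3 in cerebellum and 11.2, 5.49 and 6.86 in liver, a difference of 1.89 ± 0.20 (adjusted p = 8.32e-05), again with no overlap. Of the potassium-dependent exchangers, SLC24A2 (NCKX2), a neuronal exchanger, was at 151, 155 and 138 in cerebellum and 32.7, 35.3 and 30.5 in liver, a difference of 1.73 ± 0.16 (adjusted p = 3.37e-05). SLC24A3 (NCKX3) was at 102, 257 and 149 in cerebellum and 28.4, 26.2 and 21.4 in liver, a difference of 2.06 ± 0.29 (adjusted p = 4.53e-04). Both were separated toward cerebellum, and the cerebellum values of SLC24A3 spanned over 1 on the log2 scale. SLC24A4 (NCKX4) was at 105, 88.2 and 105 in cerebellum and 158, 271 and 92.2 in liver, with liver replicate 3 among the cerebella and a difference of -0.60 ± 0.32 (adjusted p = 0.153). Without that array the difference was -0.95 ± 0.24 (adjusted p = 0.0134), and the range over the alternatives was 0.0134 to 0.729. SLC24A1, the exchanger of rod photoreceptors, had an interval of -0.47 to 0.35.

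All 7 measured calcium pumps were higher in cerebellum, with a median of 1.05, where 26.7% of all features were higher in cerebellum. The calls of ATP2A1, ATP2A3 and ATP2C1 were each lost with any 1 of at least 3 of the arrays left out, with adjusted p up to 0.106, 0.0845 and 0.0606. ATP2B3, a plasma membrane pump of neurons, was at 236, 304 and 244 in cerebellum and 23.5, 24.2 and 22.4 in liver, a difference of 2.78 ± 0.17 (adjusted p = 3.46e-06). ATP2B1, the most widely expressed one, was at 1539, 1329.6 and 1622 in cerebellum and 213, 232 and 262 in liver, a difference of 2.58 ± 0.17 (adjusted p = 5.57e-06). Of 6 measured genes of the Na,K-ATPase, whose gradient drives most of these carriers, 4 were higher in cerebellum and 0 in liver. The call of ATP1B3 toward cerebellum was lost with any 1 of 4 arrays left out (adjusted p = 0.0659 to 0.106). FXYD1, a modulator of the pump, had a difference of -0.94 ± 0.35 (adjusted p = 0.0529) and passed toward liver with the replicate block (adjusted p = 0.0262) and in 4 other alternatives, among them without liver replicate 3 (adjusted p = 0.0155). ATP1B2 was at 2107, 1979 and 1903 in cerebellum and 111, 126 and 96.1 in liver, a difference of 3.98 ± 0.17 (adjusted p = 5.18e-07), and the modulator FXYD6 differed by 3.75 ± 0.26 (adjusted p = 6.65e-06).

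Of 4 measured sodium-proton exchangers 1 was higher in cerebellum and 0 in liver, against 3 and 0 in the alignment on general genes. SLC9A5 (NHE5), the neuronal member, was at 114, 67.1 and 93.0 in cerebellum and 24.3, 18.1 and 23.8 in liver. The cerebella were all above the livers, with a difference of 1.46 ± 0.21 (adjusted p = 4.60e-04). SLC9A3 (NHE3), the exchanger of kidney and gut brush borders, was at 41.2, 28.7 and 53.4 in cerebellum and 38.0, 12.8 and 19.1 in liver. Liver replicate 1 lay within the cerebellum range and the difference of 0.56 ± 0.27 (adjusted p = 0.117) did not pass. It passed without liver replicate 1 (adjusted p = 0.0257), with a range over the alternatives of 0.0257 to 0.337. SLC9A8, a Golgi member, and SLC9A2 had intervals of -0.87 to 0.34 and -0.18 to 0.70. The scaffolds and regulators of these exchangers went the other way, with 4 of 6 higher in liver, 0 in cerebellum and a median of -1.14. The calls of NHERF1 and NHERF2 were lost in the alignment on general genes (adjusted p = 0.0518 and 0.0573). EZR (ezrin), which links such proteins to actin, was at 31.8, 59.9 and 32.3 in cerebellum and 317, 271 and 391 in liver, a difference of -2.58 ± 0.24 (adjusted p = 3.51e-05). CHP1, an obligate partner of several exchangers, was at 470.3, 536 and 571 in cerebellum and 1651, 1699 and 1712 in liver, a difference of -1.66 ± 0.16 (adjusted p = 5.13e-05).

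**Figure D3:**
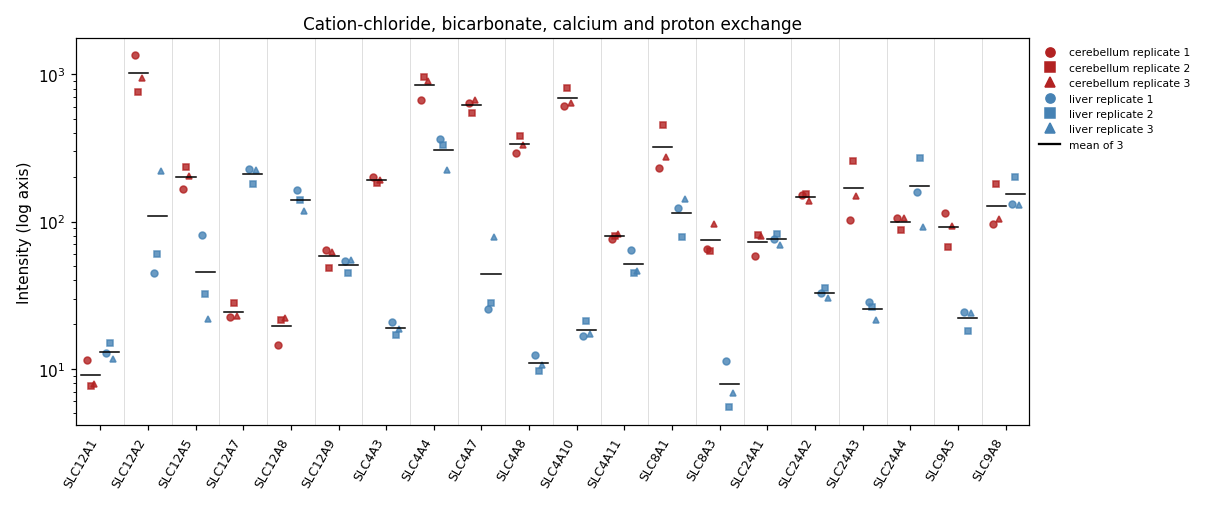
Intensity (log axis) of 20 cation-chloride, bicarbonate, calcium and proton carriers on each array, cerebellum in red and liver in blue, with the marker shape giving the replicate and the bar the mean of 3. SLC4A10, SLC4A8, SLC4A7 and SLC12A2 are separated toward cerebellum, SLC12A7 and SLC12A8 toward liver, and liver replicate 3 is the highest liver in SLC12A2 and SLC4A7.

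Of the 20 zinc transporters 3 were higher in cerebellum and 8 in liver. With the arrays aligned on general genes this split turned, to 7 higher in cerebellum and 5 in liver. In the ZIP importers 1 of 10 was higher in cerebellum and 5 in liver, against 5 and 3 in that alignment. SLC39A14 (ZIP14), an importer of zinc, iron and manganese, was at 51.3, 65.7 and 47.8 in cerebellum and 1276, 1141 and 959 in liver. The tissues were far apart, with a difference of -3.99 ± 0.19 (adjusted p = 8.70e-07). SLC39A8 (ZIP8), a close relative that carries manganese and zinc, was at 38.4, 82.3 and 39.9 in cerebellum and 384, 322 and 275 in liver, a difference of -2.33 ± 0.26 (adjusted p = 1.14e-04). SLC39A1 (ZIP1) was at 37.8, 58.1 and 35.7 in cerebellum and 235, 228 and 239.9 in liver, a difference of -2.07 ± 0.19 (adjusted p = 3.50e-05). No cerebellum value of these genes reached a liver value. SLC39A6 (ZIP6) was at 197, 366 and 323 in cerebellum and 88.4, 85.9 and 180.2 in liver. It was higher in cerebellum on every array, by 1.23 ± 0.32 (adjusted p = 0.0109), and liver replicate 3 was the highest liver.

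SLC39A9, an importer at the Golgi and cell surface, was at 203, 339 and 269 in cerebellum and 491, 463 and 386 in liver. SLC39A3 (ZIP3) was at 138, 159 and 127 in cerebellum and 179, 239 and 202 in liver. Each was separated toward liver by a small step, with differences of -0.71 ± 0.22 (adjusted p = 0.0241) and -0.50 ± 0.18 (adjusted p = 0.0477). The call of SLC39A9 was lost without cerebellum replicate 1 or 3 (adjusted p = 0.0926 and 0.0694) and without liver replicate 1 or 2 (adjusted p = 0.0646 and 0.0709), with a range over the alternatives of 0.0121 to 0.416. That of SLC39A3 was lost without cerebellum replicate 1 or 3 (adjusted p = 0.122 and 0.168) and without liver replicate 2 or 3 (adjusted p = 0.146 and 0.0676), with a range of 0.0364 to 0.915. In the alignment on general genes neither passed. SLC39A2, a dim gene at 18.6, 5.98 and 15.1 in cerebellum and 0.815, 4.03 and 6.78 in liver, overlapped between tissues with a difference of 0.52 ± 0.22 (adjusted p = 0.0759). It passed without cerebellum replicate 2 (adjusted p = 0.0236), with a range of 0.0123 to 0.239. SLC39A4, SLC39A5 and SLC39A13 passed in neither direction, with differences of 0.43, 0.28 and 0.27. In the alignment on general genes SLC39A2 and these 3 passed toward cerebellum, with adjusted p of 0.0123, 0.0278, 0.0412 and 0.0192.

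Of the 10 ZnT exporters 3 were higher in liver and 2 in cerebellum. SLC30A10, which exports manganese and is known from liver and brain, was at 44.4, 55.0 and 41.5 in cerebellum and 665, 620.3 and 480.0 in liver. The tissues were far apart, with a difference of -3.24 ± 0.19 (adjusted p = 2.81e-06). SLC30A1 (ZnT1), the zinc exporter of the plasma membrane, was at 46.8, 98.8 and 63.5 in cerebellum and 434, 389.5 and 324 in liver, a difference of -2.24 ± 0.24 (adjusted p = 1.01e-04). SLC30A7 (ZnT7), of the secretory pathway, was at 205, 196 and 182 in cerebellum and 337, 332 and 311 in liver, a difference of -0.70 ± 0.16 (adjusted p = 0.00563). Each was separated toward liver, and the call of SLC30A7 was lost in the alignment on general genes (range 0.00354 to 0.417). Toward cerebellum, SLC30A9 was at 426, 513 and 447 in cerebellum and 212, 269 and 212 in liver, a difference of 0.95 ± 0.18 (adjusted p = 0.00213). SLC30A4 (ZnT4) was at 199, 177 and 176 in cerebellum and 100.2, 77.8 and 131 in liver, a difference of 0.77 ± 0.20 (adjusted p = 0.0126) that was lost without cerebellum replicate 1 (adjusted p = 0.050), with a range of 0.00349 to 0.050. Cerebellum lay above liver on all arrays in both.

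SLC30A3 (ZnT3), which loads zinc into synaptic vesicles of forebrain neurons, was at 143, 141 and 169.9 in cerebellum and 335, 289 and 162 in liver. Liver replicate 3 fell within the cerebellum range and the other livers were above it, and the difference of -0.68 ± 0.26 (adjusted p = 0.0583) did not pass. Without liver replicate 3 the difference was -0.97 ± 0.18 (adjusted p = 0.00314), and the range over the alternatives was 0.00314 to 0.576. SLC30A6 (ZnT6), of the secretory pathway, was at 178, 161 and 155 in cerebellum and 234, 259 and 157 in liver, with liver replicate 3 again among the cerebella and a difference of -0.34 ± 0.21 (adjusted p = 0.214). Without that array it was -0.54 ± 0.17 (adjusted p = 0.0315), with a range of 0.0315 to 0.693. SLC30A8, the zinc transporter of insulin granules, was under 10 on every array. SLC30A2 and SLC30A5 had differences of -0.04 and -0.25 and passed in neither direction.

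Metallothioneins bind zinc in the cytosol, and 2 genes of that list were measured. MT3, the brain form, was at 362, 562 and 364 in cerebellum and 62.1, 25.9 and 27.7 in liver, a difference of 3.04 ± 0.29 (adjusted p = 4.12e-05). MT1X was at 318, 845 and 352 in cerebellum and 4297, 3278 and 877 in liver, a difference of -2.30 ± 0.59 (adjusted p = 0.0111). MT3 was higher in cerebellum and MT1X in liver, and liver replicate 3 was the lowest liver for MT1X.

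**Figure D4:**
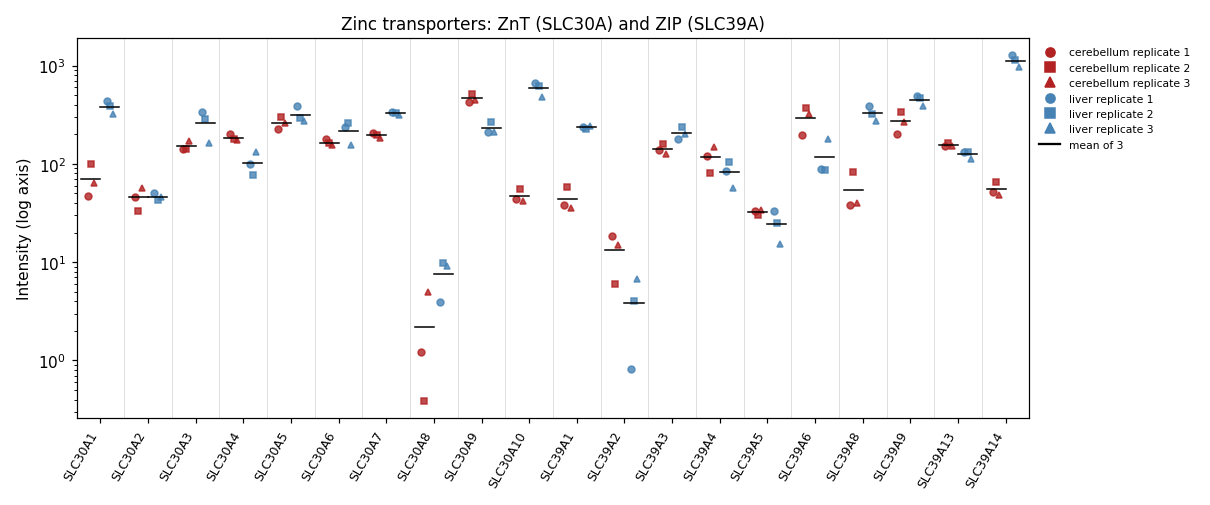
Intensity (log axis) of the 10 SLC30A and 10 SLC39A genes on each array, cerebellum in red and liver in blue, with the marker shape giving the replicate and the bar the mean of 3. SLC39A14, SLC30A10, SLC30A1, SLC39A8 and SLC39A1 are separated toward liver, and SLC30A9, SLC30A4 and SLC39A6 toward cerebellum.

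Within tissues the median range of a transporter over 3 arrays was 0.38 in cerebellum and 0.46 in liver on the log2 scale, against 0.37 and 0.49 over all features. The 3 values spanned over 1 on the log2 scale for 3 of 84 genes in cerebellum (SLC1A4, SLC6A5 and SLC24A3) and for 14 in liver. These were 3.57% of the transporters in cerebellum and 16.7% in liver, against 5.29% and 12.9% over all features. Cerebellum replicate 2 was the highest cerebellum for 46.4% of the transporters, against 39.1% of all features. Liver replicate 3 was the lowest liver for 48 of the 84 genes (57.1%), where it was the lowest for 37.3% of all features. Among the 22 genes higher in liver it was the lowest for 16 and replicate 1 was the highest for 15. Among the 25 higher in cerebellum it was the lowest for 11. Among the 14 genes with a wide liver spread, liver replicate 3 was the highest for SLC1A5, SLC4A7 and SLC12A2 and the lowest for the other 11. This is the array on which macrophage, fibroblast and bile duct markers were highest, with the sums given above, and their part in these values was not tested. The hepatocyte markers ALB, APOB, FGB and CYP3A4 summed there to 15158, against 17561 and 15862 on the other livers. These genes differed in direction. In liver ALB was at 3746, 4040 and 4107 and APOB at 3611, 3746 and 3812, both highest in replicate 3. FGB was at 6527, 4194 and 3746 and CYP3A4 at 3676, 3882 and 3493, both lowest in replicate 3. Without liver replicate 3, the transporters higher in cerebellum were 24 and those higher in liver 26.

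**Figure D5:**
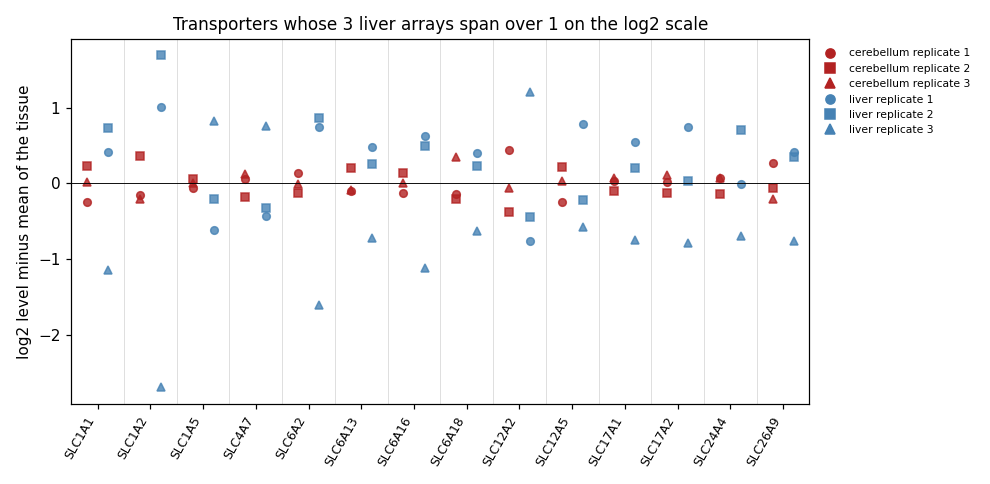
Level of each array minus the mean of its tissue, on the scale of log2(intensity + 16.8), for the 14 transporters whose liver values spanned over 1, cerebellum in red and liver in blue, with the marker shape giving the replicate. Liver replicate 3 (blue triangle) is the lowest liver for 11 of the genes and the highest for SLC1A5, SLC4A7 and SLC12A2. The genes were chosen by their liver spread, so the narrower cerebellum values follow from that choice.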

How the data were processed

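Intensities of 15143 features (transcript clusters, about 1 per gene) on 6 arrays were used as the authors deposited them, on a linear scale. The 6 columns held the same values in different orders, which is what quantile normalization leaves, and 93 values per array lay below 0. Per the submitters' processing notes GCOS was used. For background correction and probe summary the method is not given in the sources used here. RNA was extracted with TRIzol and ribosomal RNA was reduced, per the labels' protocols.

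Values below 0 were set to 0, and log2(intensity + 16.8) was taken, 16.8 being the 10th percentile of all values. In R 4.3.3, limma 3.58.1 was fitted without block or filter (lmFit, eBayes) and gave two-sided p values, adjusted by Benjamini-Hochberg over all features. The test was tried on simulated data. The number of arrays limits the precision. The p values cover the spread between 3 samples per tissue.

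Members, partner and marker lists were chosen with earlier results of these data known. Array values are given for up to 3 called members per family and direction, for uncalled transmitter and chloride carriers, and for members whose call changed without 1 array. For the partner lists up to 2 genes per direction are named. A few other genes were named after their values were seen. All 84 symbols are also in the RefSeq chimpanzee annotation (NHGRI_mPanTro3-v2.0_pri), which was used for gene order. Alternatives were a replicate block, pseudocounts at the 5th and 20th percentiles (10.2 and 30.3), a generalised log, alignment on general genes, renewed quantile normalization, a filter on dim features, a variance trend, a treat test against 1.5-fold, the dimmer feature of a shared symbol, and each array left out.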

Additional observations from a re-analysis of the deposited data

How the results depend on the processing

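The counts of transporters higher in cerebellum and in liver (25 and 22) stayed within 1.5 times under each alternative but 1. Renewed quantile normalization and the dimmer feature of a shared symbol could not move them. With the arrays aligned on general genes 40 were higher in cerebellum, against 25, and 15 in liver, with the median difference of all features at 0.50, against 0.04. With 1 array left out the counts ran from 22 to 26 in cerebellum and from 18 to 26 in liver. The partner genes, at 35 and 17, then ran from 29 to 35 and from 16 to 19. A treat test against 1.5-fold, which asks for more than a difference from 0, left 18 and 16 transporters and took 13 calls away, and without dim features 59 transporters were tested, of which 21 and 20 passed.

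No called difference of a transporter changed its sign under any alternative. Differences that had not passed changed sign in some. In the alignment on general genes those were SLC1A7 (0.46), SLC6A4 (0.12), SLC6A13 (0.17), SLC9A8 (0.20), SLC12A1 (0.25), SLC24A1 (0.41), SLC26A11 (0.05), SLC30A2 (0.43), SLC30A5 (0.22), SLC30A6 (0.13) and SLC30A8 (0.11). With 1 array left out the log2 difference of SLC1A7 ranged from -0.16 to 0.09, of SLC6A3 from -0.14 to 0.27, of SLC6A18 from -0.07 to 0.44, of SLC6A19 from -0.05 to 0.14, of SLC24A1 from -0.13 to 0.07 and of SLC30A2 from -0.17 to 0.12. The cause was not tested.

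Same-numbered arrays of the tissues share sex and age in the labels. Their deviations from the tissue means correlated with r of 0.112, 0.164 and -0.144 for replicates 1, 2 and 3 over all features. Not every array correlated best with its own number. With 3 arrays in each of 2 such different tissues, these values cannot show whether the arrays are paired. The labels do not say that they are, and the main test was run without a block. With the replicate block 24 transporters were higher in cerebellum and 21 in liver. The calls of SLC4A11 and SLC39A3 were lost (adjusted p = 0.0746 and 0.0633). Among the partner genes the block took away the calls of ALDH5A1 (0.0524) and CAB39 (0.0518) and gave FXYD1 a call toward liver (0.0262). The limits are the 3 arrays per tissue, the unknown probe summary and probes of another species, and for the 13 transporters under 38.3 on all arrays a difference would be hard to detect.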

Other observations

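In the gene order of the RefSeq chimpanzee annotation, 5 pairs of these transporters were direct neighbours. In 2 of the pairs, SLC17A4 with SLC17A3 and SLC17A3 with SLC17A2, both genes were higher in liver. SLC12A7, SLC6A19 and SLC6A18 follow each other, with log2 differences of -2.46, 0.04 and 0.24, and only the first of these passed. SLC6A12 and SLC6A13 had differences of -2.97 and -0.30, of which that of SLC6A12 passed. Whether such neighbours differ less than other genes was not tested.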
